A study of Mus musculus with 14 samples.

Results

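The genes described here are 10 regulators of the G1 phase of the cell cycle, out of 41381 genes in the expression table: the D cyclins Ccnd1, Ccnd2 and Ccnd3, their kinases Cdk4 and Cdk6, the Myc genes Mycn and Myc, and the inhibitors Cdkn1b, Cdkn1c and Cdkn2c. They were chosen by name, as genes that set progenitor division against cell cycle exit, and each matched a single Ensembl identifier. RNA sequencing (RNA-seq) measured them in granule neuron progenitors (GNPs), which divide in the external granule layer, isolated from mouse cerebella at postnatal day 7 by Percoll gradient and not cultured. The labels give 3 genotypes of Chd7, which encodes a chromatin remodeller. WT libraries (n = 5) came from pups without Cre, described by the study as carrying floxed Chd7. Het libraries (n = 5) carried Atoh1-Cre::Chd7 f/+ and Hom libraries (n = 4) carried Atoh1-Cre::Chd7 f/f. The strain was given as C56Bl6/J for one set of libraries and C57BL/6 for the other, and both sexes were used without distinction. Atoh1-Cre is active in the granule cell lineage and the study takes its recombination to be probably less efficient in the posterior lobe. Libraries were sequenced in 2 batches, with WT 1 to 3, Het 1 to 3 and Hom 1 and 2 in batch 1 and the rest in batch 2.

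D cyclins bind Cdk4 or Cdk6, and the active kinases phosphorylate the retinoblastoma protein, which releases E2F factors and lets a cell enter S phase. In GNPs this step is driven by Sonic hedgehog from Purkinje cells, which raises Ccnd1 and Mycn. The Cip/Kip proteins p27 (Cdkn1b) and p57 (Cdkn1c) and the Ink4 protein p18 (Cdkn2c) restrain these kinases, and p27 marks GNPs that leave the cell cycle for the inner part of the external granule layer.

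Values are in TPM, transcript abundance scaled to gene length and to a fixed total for each library, so they can be compared between genes. The depth of single libraries is not kept in TPM, and no counting error is given. Changes are on the log2(TPM + 1) scale with genotype and batch in the fit, and a gene is described as called at a limma adjusted p under 0.05 over the 17325 genes tested, which include all 10 genes. Chd7 itself, tested over the whole gene, was at 121 to 152 TPM in the WT libraries of batch 1 and at 172 and 185 TPM in Hom 1 and Hom 2, against the direction of the labels. In batch 2 it was at 203 and 272 TPM in WT against 150 and 126 TPM in Hom. Its overall change was -0.11 in Hom (SE 0.20, adjusted p = 0.862), and groups are therefore named by their labels throughout. By quantitative RT-PCR the study found fewer Chd7 transcripts in Het and Hom GNPs than in WT. It also reported loss of the protein by staining in Hom granule cells. The granule lineage markers were present in all libraries, with a summed TPM of 2073 to 3135 over 6 genes, among them Zic1 (a mean of 918 TPM in WT) and Barhl1 (315 TPM). That sum also differed between the WT libraries of the batches, at 2073 to 2149 TPM in WT 1 to 3 and 2931 and 3135 TPM in WT 4 and 5. In Hom the median change of these 6 genes was -0.11, with 0 called by limma and 2 lower at an unadjusted p under 0.05 (6.42% of all genes). Markers of other cells differed between batches within WT as well: the 8 endothelial markers summed to 25.9 to 36.3 TPM in WT 1 to 3 and to 127 and 226 TPM in WT 4 and 5. The 7 astroglial markers summed to 1113 to 1758 TPM in WT 1 to 3 and to 404 and 822 TPM in WT 4 and 5.

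In WT GNPs the kinase Cdk4 was the most abundant of the 10 transcripts, with a mean of 950.3 TPM over 5 libraries. It was followed by Ccnd2 (342 TPM), Cdkn1b (190.1 TPM), Mycn (138 TPM), Ccnd1 (94.3 TPM) and Cdkn2c (66.5 TPM). The lowest were Ccnd3 (22.6 TPM), Myc (20.9 TPM), Cdkn1c (16.4 TPM) and Cdk6 (14.7 TPM). Among the WT libraries, neighbours in this order overlapped for Cdkn1b and Mycn, Mycn and Ccnd1, Ccnd3 and Myc, Myc and Cdkn1c, and Cdkn1c and Cdk6. The order of means was the same in the other genotypes except that Ccnd1 (166 TPM) stood above Mycn (149 TPM) in Hom and Cdkn1c (18.0 TPM) above Myc (17.3 TPM) in Het, in both cases with overlapping libraries. Each family was dominated by 1 transcript. Ccnd2 held 74.6% ± 2.68 of D cyclin TPM in WT (SD, n = 5), Cdk4 held 98.5% ± 0.171 of kinase TPM, Mycn held 88.1% ± 4.33 of the TPM of both Myc genes, and Cdkn1b held 69.5% ± 2.83 of the TPM of the 3 inhibitors.

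**Figure D1:**
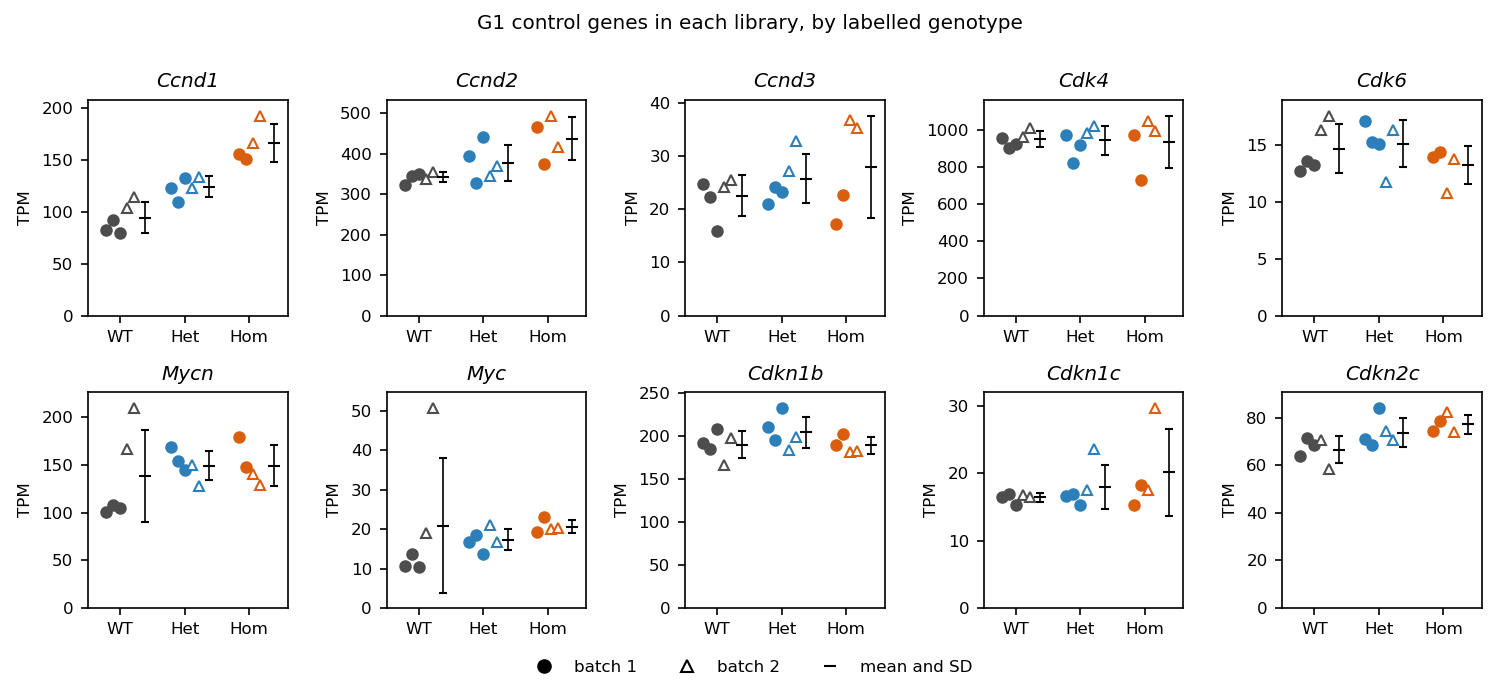
TPM of each of the 10 genes (y axis, from 0) in every library, by labelled genotype (x axis). Filled circles are batch 1 libraries, open triangles are batch 2 libraries, and the bar beside each group gives its mean and SD. Hom libraries lie above all WT libraries for Ccnd1, Ccnd2 and Cdkn2c, and the WT libraries of the 2 batches separate for Mycn.

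The 3 D cyclins share a short stretch near the start of the coding sequence that encodes the LxCxE motif, through which they bind the retinoblastoma protein. Their first coding bases, which are nearly the same in Ccnd2 and Ccnd3 up to the end of the motif, are shown because they encode it. They are on GRCm38, from the GENCODE annotation, written 5′ to 3′ on the coding strand, with the codons of the motif in capitals, at chr7:144939664-144939693 (minus strand) for Ccnd1, chr6:127150744-127150773 (minus strand) for Ccnd2 and chr17:47593655-47593684 (plus strand) for Ccnd3.
Ccnd1: atggaacaccagCTCCTGTGCTGCGAAgtg
Ccnd2: atggagCTGCTGTGCTGCGAGgtggacccg
Ccnd3: atggagCTGCTGTGTTGCGAGggcacccgg
The motif starts at codon 5 of 295 in Ccnd1, at codon 3 of 289 in Ccnd2 and at codon 3 of 292 in Ccnd3. Over all annotated transcripts, the 3 genes shared 0 stretches of 50 bases, the read length, with each other, counting exact matches only. Likewise 0 were shared between Mycn and Myc, between Cdk4 and Cdk6 and between Cdkn1b and Cdkn1c. On the same strand, 1.99% of the 50-base stretches of Ccnd3, 0.46% of those of Cdk4 and 0.92% of those of Cdk6 occurred in another gene, and 0 in the other 7 genes.

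The main comparison asked whether GNPs labelled Hom differed from GNPs labelled WT in these regulators. Ccnd1 was higher in Hom, by 1.74-fold, and was the 1 of the 10 genes called; over all genes 2.68% were called, 1.27% as higher and 1.41% as lower. Ccnd2, Cdkn2c and 5 other genes had changes above 0 and Cdk4 and Cdk6 had changes below 0, none of them called. At an unadjusted p under 0.05 there were 3 genes, Ccnd1, Ccnd2 and Cdkn2c, all higher, beside 14.9% of all genes, 8.51% in this direction. The median change of the 10 genes was 0.20, and that of all genes tested was 0.02. Bulk values do not tell more cells that express a gene from more RNA per cell: fewer cells of a type and less RNA per cell cannot be told apart.

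Ccnd1 (ENSMUSG00000070348; GRCm38 chromosome 7, 144929931 to 144939925, minus strand, protein coding) encodes cyclin D1, a D cyclin that follows Sonic hedgehog in GNPs. It was at 82.0, 91.9, 79.7, 104 and 114 TPM in WT 1 to 5, at 123, 109, 132, 123 and 133 TPM in Het 1 to 5, and at 155, 151, 166 and 192 TPM in Hom 1 to 4. All 4 Hom libraries lay above all 5 WT and all 5 Het libraries, the latter a separation found for 1.11% of all genes, and Het 2 was the one Het library below the highest WT library, WT 5, which is from the other batch. Means and SDs were 94.3 ± 14.7 for WT (n = 5), 124 ± 9.87 for Het (n = 5) and 166 ± 18.5 TPM for Hom (n = 4). Against WT, Ccnd1 was higher in Hom by 0.80 on the log2 scale (SE 0.08, 95% interval 0.62 to 0.97, limma adjusted p = 1.11e-04). It was 0.85 within batch 1 and 0.71 within batch 2, a difference between batches of -0.14 (SE 0.15, unadjusted p = 0.362). Permuting genotype labels within batch gave an exact two-sided p of 0.0167, the smallest of the 60 arrangements. Without any 1 of the libraries the change stayed between 0.76 and 0.84 and was called each time. Batch 2 alone, with 2 libraries in each group, gave 0.71 with an adjusted p of 0.114.

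In Het, Ccnd1 was 1.32-fold higher than in WT, a change of 0.40 (SE 0.08, 95% interval 0.24 to 0.56, unadjusted p = 1.38e-04), which missed the threshold over all genes (limma adjusted p = 0.149). Of the 10 genes 0 were called in Het by limma, 1 (Ccnd1) had an unadjusted p under 0.05 and 1 (Ccnd1) passed the exact permutation test (two-sided p = 0.0167). That is the smallest possible here, since the groups are equal in each batch and exchanging all labels gives the same absolute difference. Over all genes 0.00577% were called and 6.08% had an unadjusted p under 0.05. Each Het library was above each WT library of its own batch for Ccnd1, which held for 1.43% of all genes and for no other of the 10. From Het to Hom, Ccnd1 rose by a further 0.40 on the log2 scale in the fitted means (SE 0.08, limma adjusted p = 0.0549; exact permutation p = 0.0167, the smallest possible). That comparison shares its libraries with the other 2 and gave 0 called genes among the 10 by limma (0.427% over all genes) and 2, Ccnd1 and Ccnd2, at an unadjusted p under 0.05 (6.18%). On batch-adjusted values the Kruskal-Wallis p for Ccnd1 was 2.38e-05, with mean ranks of 3 for WT, 8 for Het and 12.5 for Hom. These ranks are in complete order, so this p is the smallest possible. The adjustment for batch used the genotypes and the arrangements were not kept within batch, so the p is approximate for this design.

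Ccnd2 (ENSMUSG00000000184; chromosome 6, 127125162 to 127152193, minus strand), encoding cyclin D2, the most abundant D cyclin of these cells, was at 323, 345, 350.4, 337 and 355 TPM in WT 1 to 5, at 396, 329, 442, 346 and 370 TPM in Het 1 to 5, and at 466, 375, 494 and 416 TPM in Hom 1 to 4. The Hom libraries all lay above the WT libraries, by the least in Hom 2, and overlapped with Het. A complete separation of this kind, Hom above WT, was found for 3 of the 10 genes (Ccnd1, Ccnd2 and Cdkn2c) and for 2.91% of all genes. In Hom its change was 0.35 (SE 0.09, 95% interval 0.15 to 0.55, limma adjusted p = 0.0693), a 1.27-fold higher level that was not called, with 0.30 within batch 1 and 0.39 within batch 2. With a library left out the change ran from 0.285 to 0.43 and its limma adjusted p from 0.0292 to 0.196. It was called without Hom 2 (0.43, adjusted p = 0.0292) and without Het 3 (0.34, adjusted p = 0.0440). The highest adjusted p was that without Hom 1, and with median-ratio scaling it was 0.123. The exact permutation p was 0.0167, the smallest possible, and the Kruskal-Wallis p, which is approximate here, was 0.0212. In Het the change was 0.13 (95% interval -0.06 to 0.32, adjusted p = 0.865).

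Ccnd3 (ENSMUSG00000034165; chromosome 17, 47505051 to 47599691, plus strand), encoding cyclin D3, was called between batches and not between genotypes. It was at 24.85, 22.4, 16.0, 24.2 and 25.6 TPM in WT 1 to 5, at 21.0, 24.2, 23.2, 27.3 and 32.9 TPM in Het 1 to 5, and at 17.25, 22.7, 36.8 and 35.4 TPM in Hom 1 to 4. Hom 3 and Hom 4 held the 2 highest values of all libraries and Hom 1 the second lowest. In Hom the change was 0.21 (95% interval -0.11 to 0.52, limma adjusted p = 0.561), with -0.06 within batch 1 and 0.52 within batch 2. The fitted difference of batch 2 from batch 1 was 0.47 (SE 0.12, adjusted p = 0.0200).

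Summed over the 3 genes, D cyclin transcripts held 459 ± 24.2 TPM for WT (mean and SD, n = 5), 526 ± 50.9 TPM for Het (n = 5) and 632 ± 61.7 TPM for Hom (n = 4). The sums ran from 429.8 to 495 TPM in WT and from 548 to 697 TPM in Hom, without overlap, and from 462 to 597 TPM in Het, which overlapped with both. The share of Ccnd1 in this sum was 20.5% ± 2.19 in WT, 23.6% ± 1.2 in Het and 26.4% ± 2.83 in Hom. Ccnd2 still held most of the sum in every Hom library, between 64.7% and 73.0%. No test was made of these sums and shares, since they combine the same values.

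**Figure D2:**
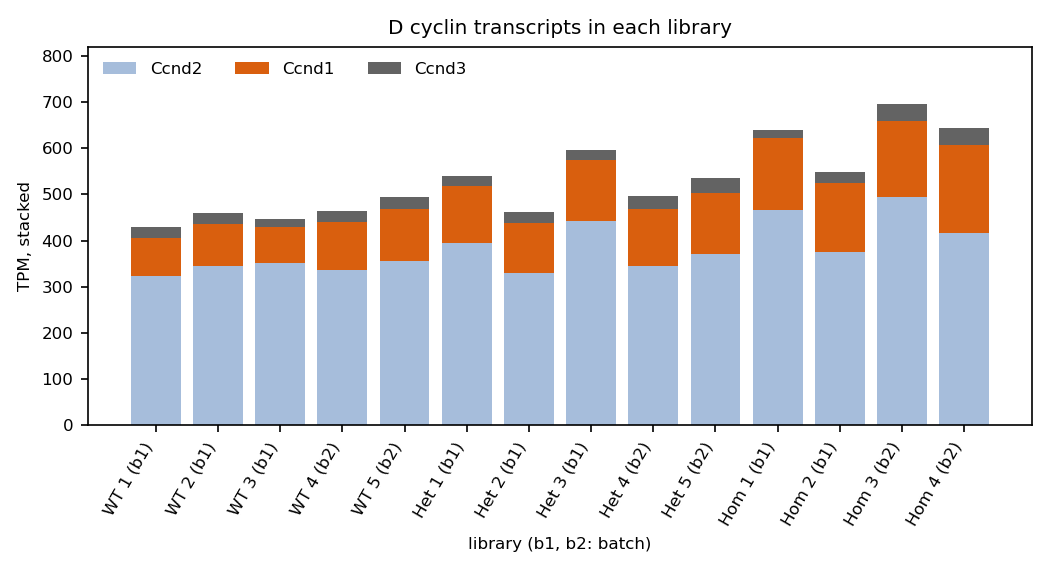
Stacked TPM of Ccnd2, Ccnd1 and Ccnd3 (y axis, from 0) in each of the 14 libraries (x axis, with the batch in brackets). The stacks reach at most 495 TPM in WT and at least 548 TPM in Hom, and Ccnd2 forms the largest part of each.

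For the kinases that these cyclins activate, the genotypes overlapped and no change was called. Cdk4 (ENSMUSG00000006728; chromosome 10, 127063534 to 127067920, plus strand) was at 957, 900.4, 922, 959.7 and 1012 TPM in WT 1 to 5, at 974, 821, 917, 984 and 1023 TPM in Het 1 to 5, and at 972, 731, 1047 and 993 TPM in Hom 1 to 4. Hom 2 was the lowest of all libraries and Hom 3 the highest. For Cdk4 the change in Hom was -0.05 (95% interval -0.22 to 0.12, limma adjusted p = 0.830), and 0.05 without Hom 2. Cdk6 (ENSMUSG00000040274; chromosome 5, 3341485 to 3531008, plus strand), which acts alongside Cdk4, was at 12.7, 13.6, 13.2, 16.4 and 17.6 TPM in WT 1 to 5, at 17.1, 15.3, 15.1, 11.8 and 16.4 TPM in Het 1 to 5, and at 13.98, 14.4, 10.8 and 13.8 TPM in Hom 1 to 4. The 2 WT libraries of batch 2 were above the 3 of batch 1, and the groups overlapped. Its change in Hom was -0.14 (95% interval -0.43 to 0.15, adjusted p = 0.691), with 0.10 within batch 1 and -0.45 within batch 2.

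**Figure D3:**
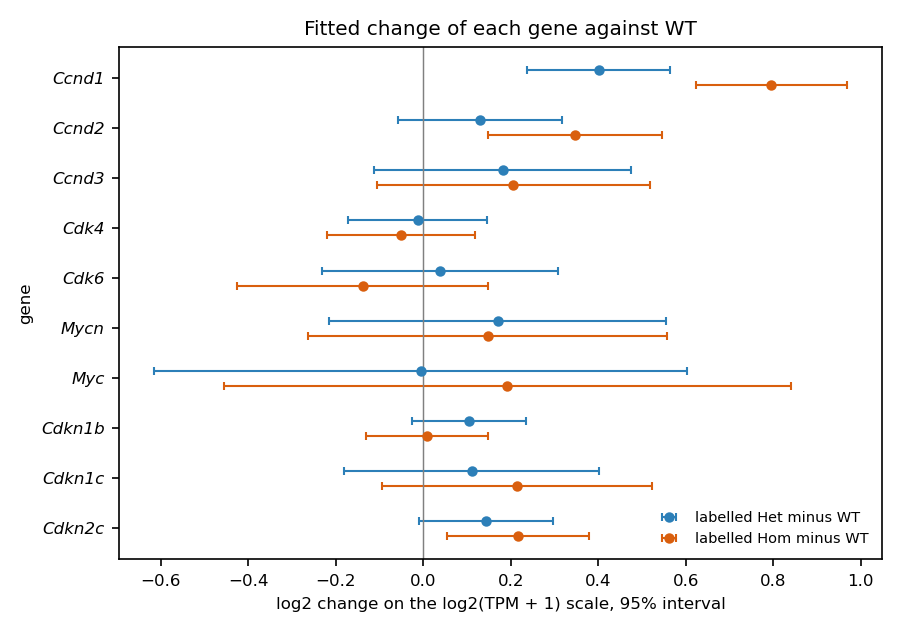
Fitted log2 change of each gene against WT, on the log2(TPM + 1) scale (x axis), for libraries labelled Het (blue) and Hom (orange), with 95% intervals from limma. Ccnd1 is at 0.40 in Het and 0.80 in Hom, and the intervals of 7 genes include 0 in both comparisons.

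The Myc genes had opposite Hom changes in the 2 batches, for Myc through 1 WT library. Mycn (ENSMUSG00000037169; chromosome 12, 12936093 to 12941914, minus strand), the Sonic hedgehog target that promotes GNP growth and division, was at 101, 108, 104.5, 167 and 209 TPM in WT 1 to 5, at 169, 154, 144, 150.3 and 128 TPM in Het 1 to 5, and at 179, 148, 140.1 and 129 TPM in Hom 1 to 4. WT 1 to 3 were the 3 lowest of all libraries, and WT 5 was the highest. In the pooled fit the change was 0.15 in Hom (95% interval -0.26 to 0.56, limma adjusted p = 0.786) and 0.17 in Het (-0.22 to 0.56, adjusted p = 0.915). Within batch 1 Mycn was higher in Hom by 0.63, which was called in a fit of that batch alone (adjusted p = 0.0369; 0.935% of all genes were called in that fit), and within batch 2 the change was -0.48 (adjusted p = 0.239 alone). The Hom changes of the 2 batches differed by -1.11 (SE 0.17, unadjusted p = 5.25e-05, adjusted p = 0.127), and the Het changes by -0.99 (SE 0.17, unadjusted p = 8.97e-05, adjusted p = 0.389).

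Myc (ENSMUSG00000022346; chromosome 15, 61985391 to 61990374, plus strand), the founding member of the family and the lesser transcript here, was at 10.7, 13.7, 10.3, 19.1 and 50.7 TPM in WT 1 to 5, at 16.7, 18.5, 13.7, 20.95 and 16.7 TPM in Het 1 to 5, and at 19.3, 23.2, 19.95 and 20.2 TPM in Hom 1 to 4. WT 5 stood apart from the other 13 libraries, whose highest value was 23.2 TPM. In Hom the Myc change was 0.19 (95% interval -0.46 to 0.84, limma adjusted p = 0.833) and 0.56 without WT 5 (adjusted p = 0.103). It was 0.83 within batch 1 and -0.61 within batch 2, a difference of -1.44 (SE 0.46, unadjusted p = 0.00912, adjusted p = 0.166). The change below 0 within batch 2 rests on WT 5. WT 4, at 19.1 TPM, was below both Hom libraries of that batch.

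Of the 10 genes 0 were called for a difference of the Hom change between batches by limma (0.0115% over all genes). There were 4 with an unadjusted p under 0.05 (Mycn, Myc, Cdk6 and Ccnd3), beside 17.2% of all genes. For the Het change 0 were called (0.00577% over all genes) and 3 had an unadjusted p under 0.05 (Mycn, Myc and Cdk6), beside 9.3%. Leaving out WT 4, after which WT 5 alone stands for WT in batch 2, both Myc genes were called in both tests (0.209% of all genes for Hom and 0.221% for Het). These calls rest on that 1 library, which holds the Myc value that stands apart, and take its spread to be that of the other groups. Mycn and Cdk6 had every Hom library above WT in batch 1 and below WT in batch 2. They were the 2 of the 10 genes with this pattern, which 3.91% of all genes had. The same held for their Het libraries against the same WT libraries (2.05% of all genes), for Cdk6 narrowly (Het 5 at 16.37, WT 4 at 16.38 TPM). Chd7 had the same form, with a difference between the Hom changes of -1.18 (SE 0.20, unadjusted p = 1.17e-04). The endothelial and astroglial sums given above also separate WT 1 to 3 from WT 4 and 5, as do the 5 Purkinje cell markers, at 61.5 to 88.3 TPM against 12.8 and 16.5 TPM. With the endothelial level as a covariate the pooled Mycn change in Hom was -0.01, and with the astroglial level it was -0.30. In the fit with both terms, 2 of the 10 genes were called between batches, Ccnd3 and Ccnd1 (0.22, adjusted p = 0.0389), both higher in batch 2. Over all genes 13.5% were called, 7.88% in this direction. With 1 of 9 libraries left out (WT 1, 3, 4 or 5, Het 2 or 5, Hom 1, 2 or 4) Ccnd3 alone was called, and with Het 3 placed in batch 2 Ccnd1 alone.

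**Figure D4:**
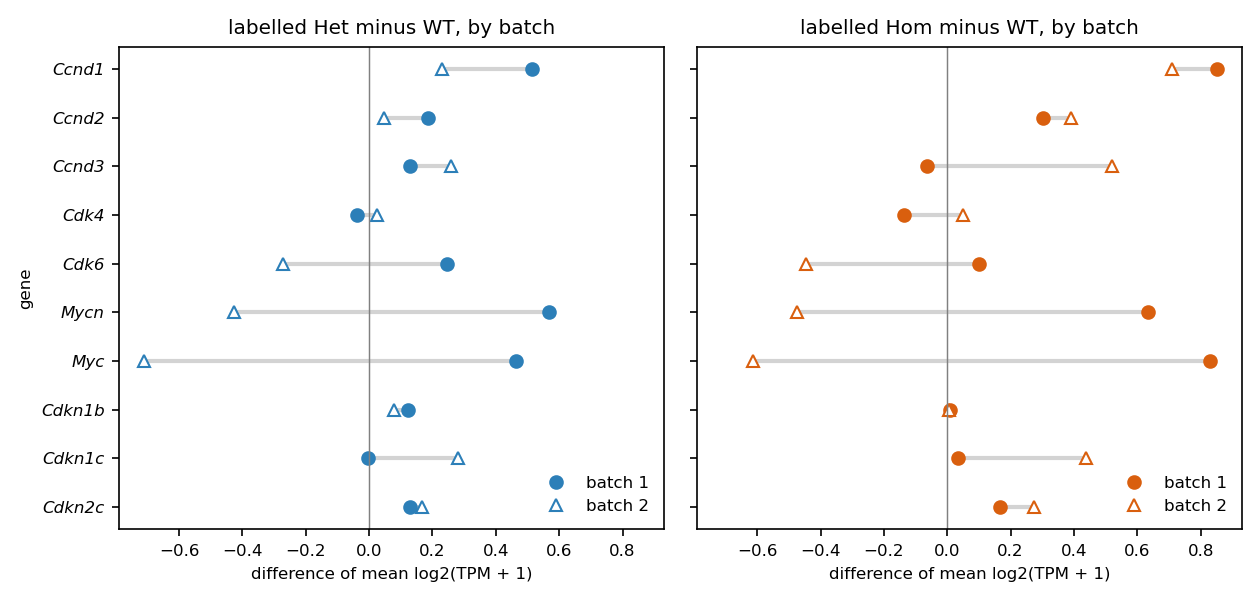
Difference of mean log2(TPM + 1) against WT (x axis) within batch 1 (filled circles) and within batch 2 (open triangles), for libraries labelled Het (left) and Hom (right); grey bars join the batches of a gene. Ccnd1, Ccnd2, Cdkn2c and Cdkn1b lie above 0 in both batches of both panels, Cdkn1b barely so in Hom. Mycn, Myc and Cdk6 lie above 0 in batch 1 and below 0 in batch 2.

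Among the inhibitors no change in Hom was called. Cdkn2c was slightly higher in every Hom library than in every WT library, as were 2.91% of all genes. Cdkn1b (ENSMUSG00000003031; chromosome 6, 134920401 to 134925513, plus strand), encoding p27, was at 192, 186, 208, 167 and 198 TPM in WT 1 to 5, at 210.5, 196, 233, 184 and 199 TPM in Het 1 to 5, and at 190.4, 202, 182 and 182 TPM in Hom 1 to 4. All Hom libraries lay within the range of WT. Its change in Hom was 0.01 (SE 0.06, limma adjusted p = 0.974), with a 95% interval from -0.13 to 0.15, which in folds runs from 0.913 to 1.11. Its sign changed with the scaling, to -0.02 with median ratios. In Het the change was 0.10 (95% interval -0.03 to 0.24, adjusted p = 0.842).

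Cdkn2c (ENSMUSG00000028551; chromosome 4, 109660876 to 109667189, minus strand), encoding p18, was at 63.7, 71.5, 68.55, 70.65 and 58.35 TPM in WT 1 to 5, at 71.0, 68.65, 83.9, 74.2 and 70.4 TPM in Het 1 to 5, and at 74.3, 78.4, 82.2 and 73.8 TPM in Hom 1 to 4. The lowest Hom library was above the highest WT library by less than the SD of either group. The change in Hom was 0.22 (SE 0.08, 95% interval 0.05 to 0.38), not called over all genes (limma adjusted p = 0.188), with 0.17 within batch 1 and 0.27 within batch 2. The exact permutation p was 0.0333 and the Kruskal-Wallis p, which is approximate here, was 0.0230. In Het the change was 0.14 (95% interval -0.01 to 0.30, adjusted p = 0.836).

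Cdkn1c (ENSMUSG00000037664; chromosome 7, 143458339 to 143461050, minus strand), encoding p57, an imprinted inhibitor expressed from the maternal copy, was at 16.6, 17.02, 15.4, 16.7 and 16.5 TPM in WT 1 to 5, at 16.7, 16.9, 15.3, 17.6 and 23.7 TPM in Het 1 to 5, and at 15.3, 18.3, 17.5 and 29.7 TPM in Hom 1 to 4. The 2 highest values were those of Het 5 and Hom 4, both of batch 2. For Hom the change was 0.21 (95% interval -0.10 to 0.52, limma adjusted p = 0.536), and 0.06 without Hom 4.

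Set against each other within a library, the TPM of Ccnd1 was 0.383 to 0.622 times that of Cdkn1b in WT, 0.556 to 0.669 times in Het and 0.747 to 1.05 times in Hom. Hom was separated from both other groups, as it was for Ccnd1 alone, and Hom 4 was the only library in which Ccnd1 exceeded Cdkn1b. No test was made of this ratio, since it combines values already given. Means and SDs of the ratio were 0.501 ± 0.1 for WT (n = 5), 0.609 ± 0.0547 for Het (n = 5) and 0.882 ± 0.133 for Hom (n = 4). Cdkn1b itself was at 190.1 ± 15.5 TPM for WT and at 189 ± 9.41 TPM for Hom.

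The rest of the G1 machinery was read from 6 lists of 47 genes, of which 46 were tested. In Hom 1 was called lower and 0 higher, beside 1.41% and 1.27% of all genes. At an unadjusted p under 0.05 there were 8, beside 14.9% of all genes, and the median change of the 46 was 0.07. The called gene was Tfdp2, a DP subunit that pairs with E2F factors, at 110.2 ± 10.3 TPM for WT (mean and SD, n = 5), 93.5 ± 12.1 TPM for Het (n = 5) and 73.4 ± 10.1 TPM for Hom (n = 4). Hom libraries ran from 62.1 to 84.5 TPM and WT libraries from 95.5 to 121 TPM. The share of all genes with every Hom library below every WT library is not given here, so this separation is not weighed. The Tfdp2 change was -0.56 (SE 0.09, limma adjusted p = 0.00451). It was -0.43 in batch 1 alone (adjusted p = 0.152) and -0.73 in batch 2 alone (adjusted p = 0.130). In Het 0 of the 46 were called by limma (0.00577% of all genes) and 1 had an unadjusted p under 0.05 (6.08%).

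In the other lists no gene was called in Hom, and the gene with the largest change of each is given. Among the other CDK inhibitors it was Cdkn2b (p15), with a change of 0.41 (adjusted p = 0.351) at 0.446 TPM in WT and 0.925 TPM in Hom. All WT libraries lay below 1 TPM, so it passed the filter on low values through the other groups, where it is higher. Cdkn2a was below 1 TPM in all libraries and was not tested. In the list of later G1/S cyclins and kinases it was Cdc25a, a phosphatase that activates Cdk2, at 0.20 (adjusted p = 0.396). Of the partners and antagonists of Myc it was Mxd1, a Max-binding repressor, at -0.39 (adjusted p = 0.419), with 0.08 in batch 1 alone. In the list of ubiquitin ligase components that turn over p27, Myc and D cyclins it was Huwe1, at 0.35 (adjusted p = 0.177), which was called without Het 4 (adjusted p = 0.0188). Of the 7 Hedgehog response genes, 6 had changes above 0 in Hom (9618 of the 17325 genes tested did), with a median of 0.27, and 3 were higher at an unadjusted p under 0.05 (8.51% of all genes). The largest was that of Hhip, a Hedgehog-binding antagonist, at 0.52 (adjusted p = 0.272), and Gli1 and Ptch1, the usual readouts of the pathway, named after their values were seen, were at 0.28 (adjusted p = 0.266) and 0.27 (adjusted p = 0.180).

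Of 19 proliferation markers 1 was called in Hom, Mcm6, a subunit of the replicative helicase (0.39, SE 0.09, limma adjusted p = 0.0437), beside 1.27% of all genes called higher. It was at 179.8 ± 6.54 TPM for WT (mean and SD, n = 5) and 238.5 ± 30.2 TPM for Hom (n = 4). The median change of the 19 was 0.08, and the direction of their summed TPM turned with batch. In batch 1 the sum was 3773 to 4092 TPM in WT and 3438 and 3973 TPM in Hom, and in batch 2 it was 2960 and 3356 TPM in WT and 3590 and 3718 TPM in Hom. Of 12 markers of post-mitotic granule neurons 11 were tested, 10 had changes below 0 and the median was -0.28. Tubb3, a neuronal tubulin, Slc17a7, a vesicular glutamate transporter, and Syt1, a synaptic vesicle calcium sensor, were called lower, with changes of -0.38, -0.71 and -0.64, beside 1.41% of all genes called lower. Grin2c, a glutamate receptor subunit of mature granule neurons, was called higher (1.51); its WT libraries lay below 1 TPM, so it passed the filter on low values through the other groups. The part of the mix of dividing and post-mitotic cells in the Ccnd1 result was not tested.

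**Figure D5:**
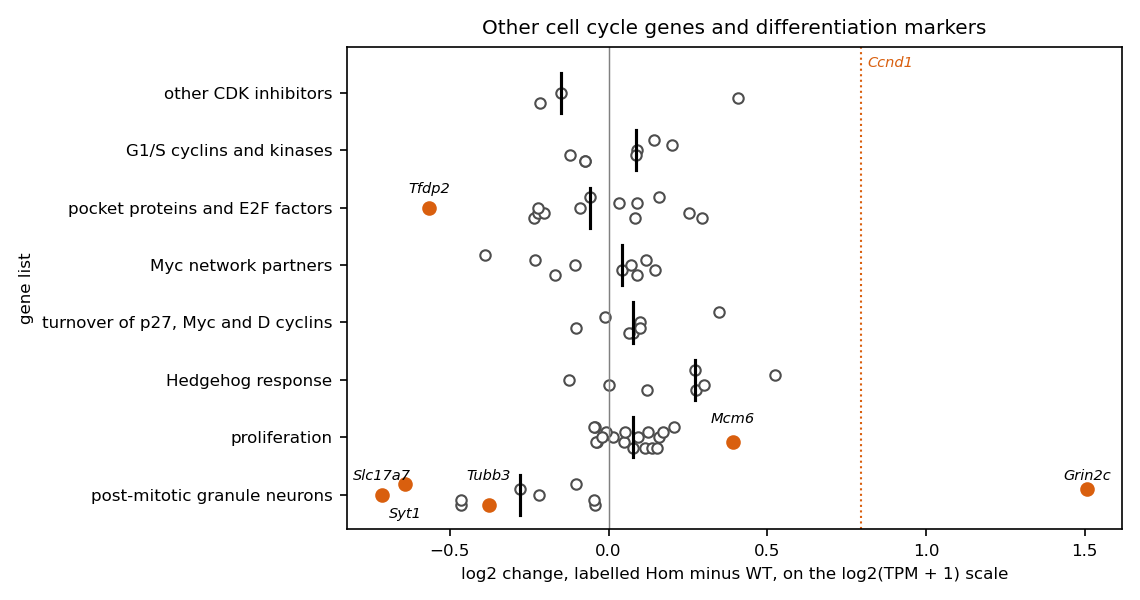
Log2 change in libraries labelled Hom against WT (x axis) of each tested gene in 8 lists (rows); filled orange circles are called genes, black bars are list medians, and the dotted line marks Ccnd1. Tfdp2, Tubb3, Slc17a7 and Syt1 are called lower and Mcm6 and Grin2c higher, and Ccnd1 at 0.80 lies beyond all but Grin2c on the higher side.

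Markers of other cell types also differed between labelled groups in the pooled fit, though not alike in both batches. All 8 endothelial markers had changes above 0 in Hom, with a median of 1.497 and 0 called by limma (7 at an unadjusted p under 0.05, beside 8.51% of all genes higher at that level). Their sum ran from 25.9 to 226 TPM in WT, from 21.8 to 485 TPM in Het and from 118 to 363 TPM in Hom. Of the 7 astroglial markers 6 had changes below 0 (median -0.86, 0 called, 5 lower at an unadjusted p under 0.05 beside 6.42% of all genes), with sums of 404 to 1758 TPM in WT, 542 to 1090 TPM in Het and 306 to 639 TPM in Hom. The 3 red blood cell markers (median -0.79) and the 4 tested Purkinje cell markers (median -1.04) had changes below 0 as well, with 0 called. Endothelial, astroglial and Purkinje cell sums of WT and Hom lay apart within batch 1 and overlapped within batch 2. In batch 2 the endothelial sums were 127 and 226 TPM in WT and 221 and 316 TPM in Hom. The astroglial sums were 404 and 822 TPM against 306 and 639 TPM. Those of the 5 Purkinje cell markers were 12.8 and 16.5 TPM against 14.8 and 19.0 TPM. Lists for mural cells, interneurons, oligodendroglia, microglia and meninges had medians between 0.15 and 0.48 and 0 called. No marker of these lists was at 0 in all libraries. The Ccnd1 change in Hom was 0.83 with the endothelial level as a covariate (adjusted p = 7.23e-04) and 0.80 with the astroglial level (adjusted p = 0.00497). For Ccnd2 it was 0.49 (adjusted p = 0.0134) and 0.32 (adjusted p = 0.284).

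The counting is not described as using strand, so reads over antisense neighbours cannot be told apart by strand. Ccnd1 shares 1100 of its 4709 exonic bases (23.4%) with LTO1 on the opposite strand, whose own change in Hom was 0.09 (adjusted p = 0.793). Ccnd2 shares 368 bases (3.91%) with 9330179D12Rik, at 0.45 (adjusted p = 0.196), and 372 bases (3.95%) with Gm43126, not analysed here. Ccnd3 shares 361 bases (4.11%) with Bysl, which like Ccnd3 was called higher in batch 2 (0.37, adjusted p = 0.00986). Cdk4 shares 641 bases (19.7%) with Tspan31, at 0.10 (adjusted p = 0.769), and Cdkn1c shares 625 bases (30.7%) with Gm44732 and Cdk6 368 bases (2.63%) with Gm17590, both not analysed here. Mycn, Myc, Cdkn1b and Cdkn2c share 0 stretches of 50 bases with any other gene on either strand.

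The genes with the pattern most like that of a member were sought across the 14 libraries after adjustment for batch, among 10439 genes with a mean of at least 10 TPM, by Pearson's r as a measure of likeness. Nearest to Ccnd1 were Syt13 (0.977), Gpr153 (0.971) and Angptl2 (0.964), each of which was itself called higher in Hom, by 1.31, 0.67 and 0.93. Nearest to Mycn were Usp22 (0.924), Rassf3 (0.917) and Cdt1 (0.906), with changes in Hom of -0.01, 0.13 and 0.04 that were not called. Nearest to Cdkn1b were Akirin2 (0.902), Rab1a (0.814) and Rrp8 (0.812), and nearest to Cdkn1c were Irgm1 (0.911), Rian (0.906) and ENSMUSG00000099249, which holds the same values as Rian. These values are descriptions chosen as the highest of many, over libraries that share genotype and batch.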

How the data were processed

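RNA sequencing of total RNA from 14 GNP preparations gave single-end 50 bp reads. The authors aligned them with Bowtie 1.0.0 to Ensembl mouse transcripts (mm10) and deposited gene-level TPM values that RSEM 1.2.15 had estimated at default parameters. Columns summed to between 999999.14 and 1000000.79. TPM keeps no read number and the study states depth only approximately, so the depth behind a value is unknown and no counting error is given. TPM is also a share, so a change in abundant genes moves the values of all others. Columns headed Con were taken as WT by their number, and 0 columns were left unmapped. Het 3 is in batch 1 by the study's methods but was submitted with the second set. Nothing says that libraries of a group came from separate animals, so p-values measure the spread between these libraries, which may be technical.

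Genes reaching 1 TPM in 4 or more libraries (17325) were fitted as log2(TPM + 1), a pseudocount of 1, with limma 3.58.1 in R 4.3.3 (genotype and batch, eBayes with trend, all 14 libraries). Tests were two-sided, with Benjamini-Hochberg adjustment of p over all genes tested. An interaction term compared the batches. The study's own scheme, ComBat before Kruskal-Wallis tests, was replaced by this fit. ComBat was not run, and a Kruskal-Wallis test over all 252252 arrangements of batch-adjusted values was an alternative. That adjustment had genotype in its fit and the arrangements were not kept within batch, so its p is approximate. Single genes were also tested by exact permutation of genotype labels within batch (60 or 120 arrangements). The fit was tested on simulated data. Alternatives were a pseudocount of 0.1, no filter or a mean of 5 TPM, median-ratio scaling, no batch term, a replicate block, Het 3 in batch 2, 2 genotypes only, each batch alone, each library left out and, added after seeing the data, endothelial or astroglial markers as a covariate.

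The 10 genes, the lists and the tests were chosen with earlier results of these data known. Named genes are these 10, Chd7, list genes that were called, the largest change of each pathway list and the genes most like Ccnd1, Mycn, Cdkn1b and Cdkn1c in pattern. Zic1, Barhl1, Gli1, Ptch1, Cdkn2a, Tfdp1 and the overlapping neighbours were named outside this rule, after their values were seen. Symbols, positions and sequences come from the GENCODE annotation of GRCm38, in which 40254 of 41381 identifiers had a symbol.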

Additional observations from a re-analysis of the deposited data

Results flagged for a closer look

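Each of the 10 genes was checked for a library that stands apart in its group, in 30 sets of 4 or 5 libraries, with a gap test that picks out about 1 in 20 sets by chance. It picked out 3 sets. Myc in WT 5 was at 50.73 TPM, with the other WT libraries at 10.3 to 19.1 TPM. Cdk6 in Hom 3 was at 10.76 TPM, below the other Hom libraries, of which the highest was at 14.42 TPM. Cdkn1c in Het 5 was at 23.67 TPM, above the other Het libraries, of which the lowest was at 15.28 TPM.

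For Mycn and Cdk6, every Hom and every Het library was above every WT library in batch 1 and below every WT library in batch 2, as for 3.91% of all genes in Hom and 2.05% in Het. Both comparisons use the same WT libraries, and for Cdk6 in Het the margin in batch 2 was narrow (Het 5 at 16.37 TPM, WT 4 at 16.38 TPM). For Mycn the difference between batches was -1.11 for the Hom change (unadjusted p = 5.25e-05, limma adjusted p = 0.127) and -0.994 for the Het change (unadjusted p = 8.97e-05, adjusted p = 0.389). For Cdk6 it was -0.545 for the Hom change (unadjusted p = 0.0285, adjusted p = 0.237) and -0.517 for the Het change (unadjusted p = 0.0292, adjusted p = 0.514). None of the 4 differences was called over all genes by limma, and 17.2% of all genes for Hom and 9.3% for Het had an unadjusted p under 0.05.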

How the results depend on the processing

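Ccnd1 was higher in Hom than in WT under every alternative run, by 0.71 to 0.87 on the log2 scale, and lost its call in batch 2 alone. The number of the 10 genes called in Hom, 1, became 2 with the replicate block, in batch 1 alone (Ccnd1 and Mycn) and with the endothelial covariate, 3 by the exact permutation p, 0 in batch 2 alone, and 1 to 2 with each library left out (2 without Het 3 or Hom 2). Of the other G1 genes, 1 called in Hom became 2 with only the 2 genotypes compared (Huwe1 and Tfdp2), with the endothelial (Tfdp1 and Tfdp2) and with the astroglial covariate (Mxd1 and Tfdp2), 0 in each batch alone, and 1 to 2 with each library left out (2 without Het 4). The 0 called in Het became 1 (Ccnd1) by exact permutation. The 0 called from Het to Hom became 1 (Ccnd1) with a mean TPM of at least 5 and with Het 3 in batch 2, and 0 to 1 with each library left out (1 without WT 5 or Het 3). Between batches, 2 became 1 with Het 3 in batch 2 and 1 to 2 with each library left out. The 0 called for a Hom or Het change that differed between batches became 0 to 2 with each library left out, Myc and Mycn without WT 4. The causes of these shifts were not tested.

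Among changes in Hom that took the other sign, Ccnd3 was at -0.0649, Cdk6 at 0.0992 and Mxd1 at 0.0774 in batch 1 alone, and Mycn at -0.475, Myc at -0.614 and Cdk4 at 0.0493 in batch 2 alone. With the endothelial covariate Mycn was at -0.0135, Myc at -0.0971 and Cdk4 at 0.0529. With the astroglial covariate Mycn was at -0.300, Myc at -0.504 and Cdkn1b at -0.0385. Cdkn1b was at -0.0202 with median-ratio scaling and -0.00368 without a batch term. With a library left out, Cdk4 ran from -0.11 to 0.0503 and Cdkn1b from -0.0274 to 0.0501. Among changes in Het, Mycn was at -0.427, Cdk4 at 0.0262 and Cdk6 at -0.272 in batch 2 alone, and Myc at 0.463 and Cdkn1c at -0.00367 in batch 1 alone. With the endothelial covariate Cdk4 was at 0.0597 and Cdk6 at -0.0559, and with the astroglial covariate Mycn was at -0.0645 and Cdk6 at -0.0475. Myc was at 0.00333 with a pseudocount of 0.1. With a library left out, Myc ran from -0.134 to 0.335, Cdk4 from -0.0438 to 0.0218 and Cdk6 from -0.0119 to 0.132. Changes of single genes kept both sign and call in 277 other values, and in 345 with a library left out.

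Deviations of 11 pairs of same-numbered libraries of a batch correlated at -0.101 to 0.253. Pairs of unlike number were not compared, so this cannot decide whether the replicate numbers pair libraries. With the replicate block in place of batch Ccnd1 was at 0.87 (adjusted p = 6.85e-04), Ccnd2 at 0.35 (adjusted p = 0.0366) and Cdkn1b at -9.23e-05.

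Over all genes, 465 calls in Hom (220 higher, 245 lower) became 162 in batch 1 alone, 4 in batch 2 alone, 277 with only the 2 genotypes compared, 232 with the astroglial covariate (84 higher, 148 lower), 285 without Hom 1 and 296 without Hom 4. The 2338 calls between batches (1366 higher, 972 lower) became 715 with Het 3 in batch 2, 1400 without WT 4 and 1530 without WT 3, and 1136 higher and 1135 lower with median-ratio scaling. Depth is unknown, so genes near 1 TPM carry an unmeasured counting error.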
